A study of Mus musculus with 24 samples.

Results

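The 8 genes described here are known as markers or effectors of proprioceptors and mechanoreceptors: Pvalb, Calb1, Calb2, Piezo2, Whrn, Runx3, Etv1 and Spp1. They were read through all gene probes that the scanner files name by 1 of these symbols, 24 of 56605 gene probes, for 8 of 24813 named genes. For each gene, the probe with the highest mean over all 24 arrays supplied the values below, and the other probes served as a check. All 8 of these probes, and 15 of the 24, passed the filter on dim probes, which asks that all 3 arrays of some group be well above the local background. They were tested within a fit of 36409 probes.

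RNA came from lumbar L4-L6 spinal roots of untreated C57BL/6 mice at postnatal day 0 (P0) and at 1, 3 and 5 weeks (written 1 W, 3 W, 5 W), with afferent nerve (AN) fibres taken from the dorsal roots and efferent nerve (EN) fibres from the ventral roots. Each of the 8 groups had 3 one-colour arrays. Mice of both sexes were used, according to the study. The methods say that the fibres were collected into 8 tubes matching the 8 groups, and that 3 independent experiments stood behind each group. A number of animals is given there for each age. The number behind an array is not given in the sources used here, nor whether the 3 arrays of a group came from 1 pool. According to the study, the fibres are mainly axons, and Schwann cells remain in the samples. The cell bodies of the sensory neurons lie in the dorsal root ganglia and those of the motor neurons in the spinal cord. Whether any cell bodies were carried over was not tested.

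Proprioceptors are large myelinated sensory neurons whose endings in muscle spindles and tendon organs report muscle length and tension. The transcription factors Runx3 and Etv1 act in their development, the stretch-gated channel Piezo2 carries much of their mechanical response and that of touch receptors, and Whrn encodes whirlin, a scaffold protein. Pvalb, Calb1 and Calb2 encode the calcium-binding proteins parvalbumin, calbindin and calretinin, which mark subsets of large sensory neurons but also interneurons and, for parvalbumin, fast skeletal muscle. Spp1 encodes osteopontin, a secreted glycoprotein made by proprioceptors, large motor neurons, macrophages and bone cells.

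Values are log2 signal on the scale deposited by the authors, and a difference between groups is a difference of log2 means. A difference was called when its adjusted p was under 0.05 by limma over all tested probes. Labels do not say that the 3 arrays of a group came from separate animals, so the p-values measure only the spread between these arrays. In bulk RNA of a root, fewer cells or axons of a type and less RNA per cell cannot be told apart.

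The Schwann cell list, led by the peripheral myelin gene Pmp22, was well above background for 9 of 9 genes on every array. In the AN arrays its mean log2 level ran from 15.06 to 15.37 at P0 and from 16.88 to 16.97 at 5 W. A sensory neuron list, 5 of its 6 genes tested, had mean levels of 9.82 to 11.12 in the AN arrays and 10.08 to 10.48 in the EN arrays at P0, so the ventral roots of newborns held these transcripts within the range of the dorsal roots. From 1 W on, the EN arrays held the list at 7.22 to 8.64 and the AN arrays at 7.21 to 11.70. Replicate 3 of AN at 3 W stood apart, with a pan-neuronal list mean of 15.06 against 11.56 and 11.20 in replicates 1 and 2 of that group. Its array weight of 0.216 was the lowest of the 24. Leaving this array out ended 1 of the calls below and added 8, at other ages too since all groups share 1 estimate of the spread, and each is given with its gene.

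**Figure D1:**
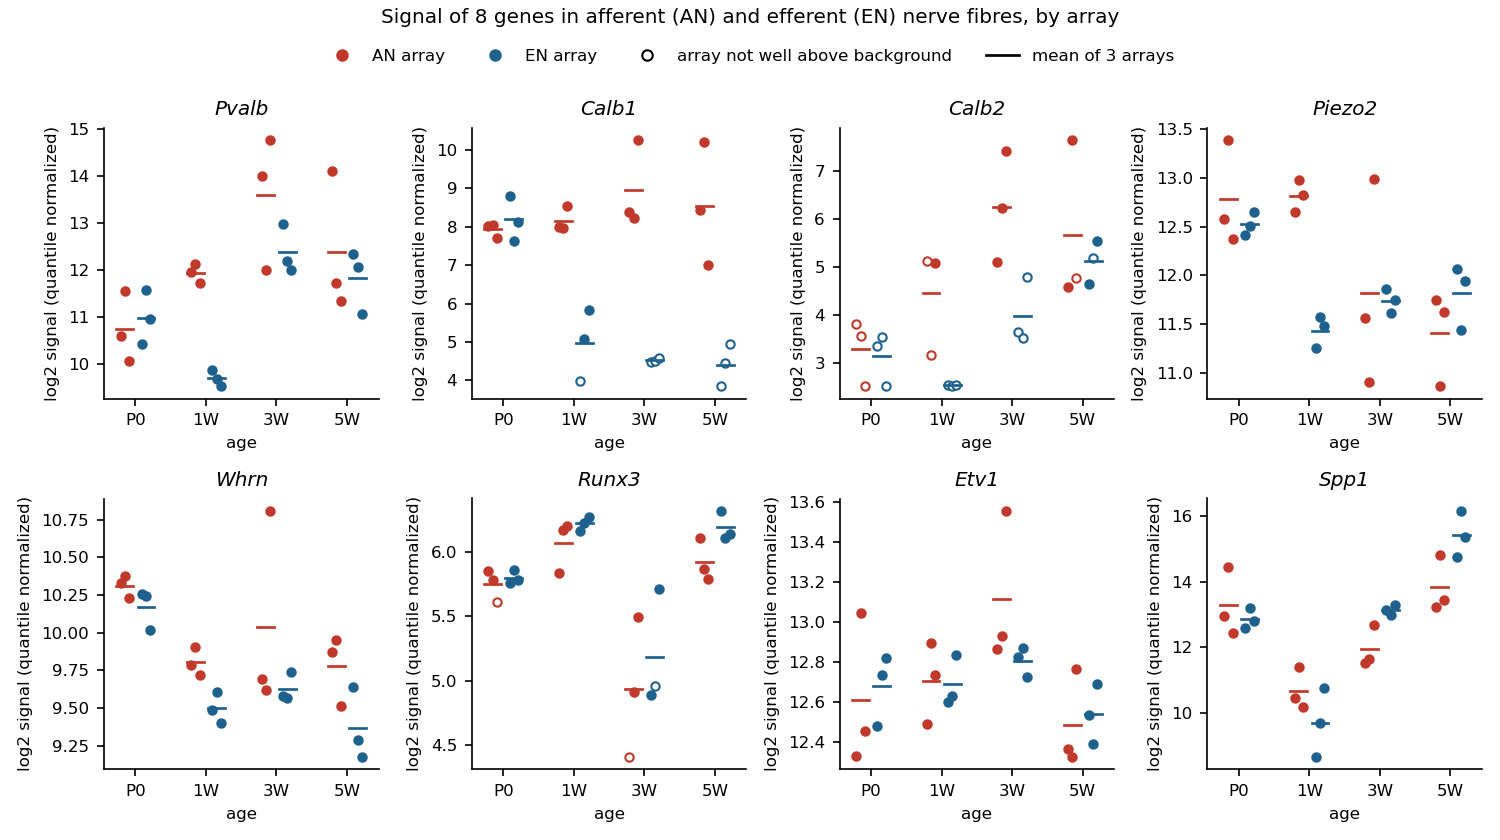
Log2 signal of the 8 genes (vertical axes) on each of the 24 arrays by age (horizontal axes), AN and EN apart. Points are arrays, with open points not well above background, and short lines are the means of 3 arrays. Calb1 lay between 6.99 and 10.26 in every AN array and between 3.85 and 5.84 in every EN array after P0.

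Between AN and EN roots, Calb1 was called at each age after P0 and Piezo2 at 1 W. At P0 none of the 8 genes was called by limma, with 0.739% of all tested probes called, and none had an unadjusted p under 0.05. At 1 W, 2 of 8 were called, Calb1 and Piezo2, both higher in AN, against 4.00% of all tested probes. At 3 W and at 5 W, 1 of 8 was called, Calb1 each time, against 5.89% and 6.76%. With the thresholds of the study's methods, an unadjusted p under 0.05 and a fold over 2, 0, 4, 3 and 2 genes passed at the 4 ages, against 1.12%, 4.99%, 5.64% and 5.62% of all tested probes. In order of age, the median difference over the 8 genes was 0.04, 1.18, 0.36 and 0.18, beside medians of 0.01, -0.06, -0.03 and -0.03 over all tested probes. The AN and EN arrays did not overlap for 0, 5, 3 and 1 of the genes, against 13.2%, 24.6%, 32.7% and 20.1% of all tested probes.

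**Figure D2:**
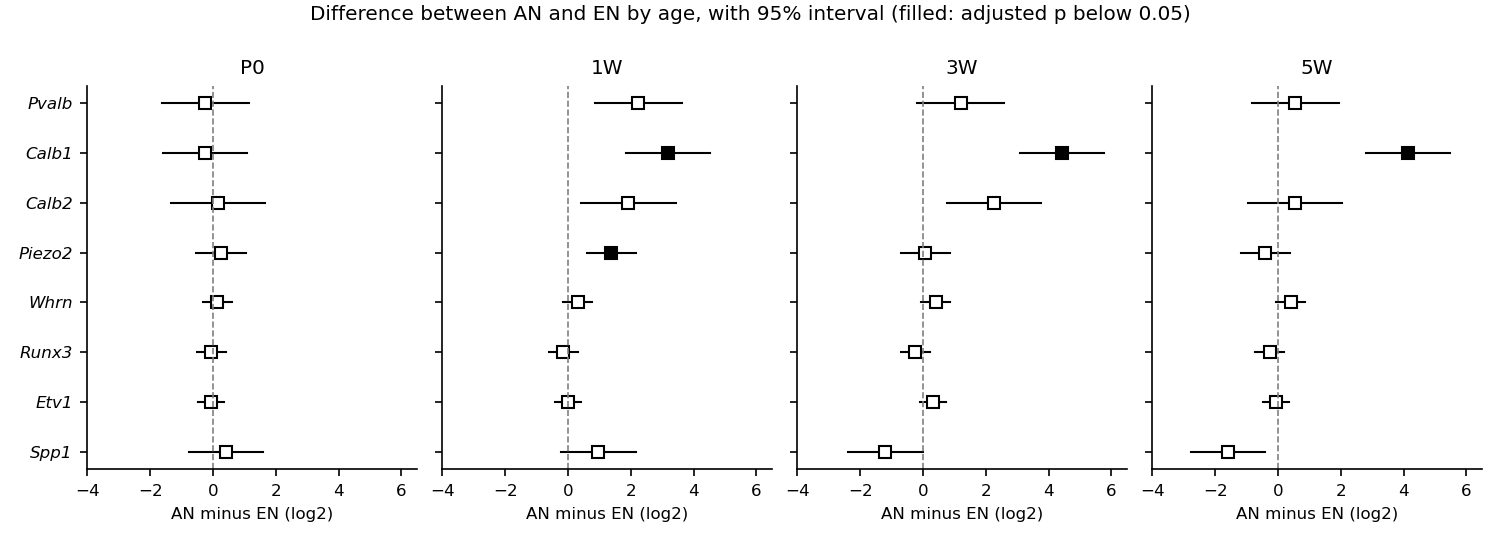
Difference in log2 signal, AN minus EN (horizontal axes), of each of the 8 genes (rows), with 1 panel per age and 95% confidence intervals of the limma fit as lines. Filled squares were called. The fitted Calb1 difference was 3.19 at 1 W, 4.43 at 3 W and 4.14 at 5 W.

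Each later age was also compared with P0 within a root. At the 3 later ages in order, 1, 5 and 3 of the 8 genes were called against P0 in AN, when 21.7%, 51.7% and 50.6% of all tested probes were. In EN, 4, 3 and 4 of the 8 were called, beside 27.1%, 55.0% and 54.1% of all probes. With the methods' thresholds, 1, 3 and 3 genes passed in AN against 10.3%, 28.7% and 28.9% of all probes, and 3, 2 and 3 in EN against 13.5%, 31.4% and 30.7%. The arrays of the later age and of P0 did not overlap for 3, 4 and 3 genes in AN, with 41.3%, 58.1% and 53.3% of all probes, and for 6, 5 and 6 in EN, with 46.4%, 71.3% and 58.8%. These comparisons share their P0 arrays within each root. No P0 array was on the slide that held all arrays of 3 W. Each difference of 3 W from P0 is therefore also one between slides. At 3 W and 5 W the share of the 8 genes called was near that of all tested probes.

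Calb1, the calbindin gene, showed the largest differences between roots of the 8 genes at every age after P0. Its chosen probe lies at chr4:15832543-15832602 on the plus strand of mm9, the build named in the file headers. In AN the arrays read 8.03, 8.06 and 7.71 at P0, 7.98, 7.97 and 8.53 at 1 W, 8.38, 8.24 and 10.26 at 3 W, and 8.44, 10.22 and 6.99 at 5 W. In EN the arrays read 8.82, 7.64 and 8.12 at P0 and 3.99, 5.08 and 5.84 at 1 W. They then read 4.49, 4.50 and 4.59 at 3 W and 3.85, 4.45 and 4.94 at 5 W. The 2 roots overlapped at P0 and at no later age, and no EN array at 3 W or 5 W was well above background.

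The Calb1 difference at 1 W was 3.19 ± 0.64 (SE, n = 3 per group), or 9.14-fold higher in AN, with an adjusted p of 0.00748 and a 95% interval of 1.85 to 4.53. Without EN replicate 1 of 1 W, the lowest of its group, it was 2.70 and not called (adjusted p = 0.0605). Where the EN arrays fell below background only a bound on the deposited scale can be given: AN was at least 16.9-fold higher at 3 W (adjusted p = 0.000364) and at least 11.4-fold higher at 5 W (adjusted p = 0.000541). These bounds do not hold for other processing. Across the processing alternatives the fitted log2 difference went down to 2.58 at 3 W and 2.26 at 5 W. Without AN replicate 3 of 3 W the fitted 3 W difference was 3.78 in place of 4.43 (adjusted p = 0.00241), and without AN replicate 2 the 5 W difference was 3.30 in place of 4.14 (adjusted p = 0.0029). In the fit on the 6 arrays of 5 W alone, Calb1 was not called (adjusted p = 0.133).

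Against P0, the chosen Calb1 probe was called in EN at each later age and in AN at none. In EN it fell by 3.22 from P0 to 1 W (adjusted p = 0.00114), and was at least 9.97-fold lower than at P0 by 3 W and at least 8.89-fold lower by 5 W (adjusted p = 0.000101 and 6.55e-05). On the 2 slides that held EN arrays of both P0 and 1 W, the differences were -4.83 and -2.04. In AN the differences from P0 were 0.23, 1.02 and 0.62, none called (adjusted p = 0.848, 0.19 and 0.443). The fitted AN-minus-EN difference at 3 W exceeded that at P0 by 4.69 (adjusted p = 0.0197), and by 4.04 without AN replicate 3 of 3 W (adjusted p = 0.0389). At 5 W it exceeded that at P0 by a fitted 4.40 (adjusted p = 0.0201). These fitted values use EN signals below background. With the EN arrays set at their bound on the deposited scale, the log2 excess was at least 4.34 at 3 W and at least 3.77 at 5 W. After normexp background correction the fitted excess was smaller, 2.79 and 2.47, and neither was called (adjusted p = 0.0538 and 0.0711). Both calls were lost without AN replicate 3 of P0 (adjusted p = 0.0596 and 0.0567) or EN replicate 1 of P0 (adjusted p = 0.0583 and 0.0651), the 3 W call also without any 1 EN array of 3 W, and the 5 W call without EN replicate 1 of 5 W. Calb1 was the 1 gene of the 8 called in these tests of a difference between ages, which called 0.615% and 1.14% of all tested probes. The same test at 1 W called none of the 8 genes and 0.0632% of probes, though 3 of the 8 had an unadjusted p under 0.05. Without AN replicate 3 of 3 W, the 1 W excess of Calb1 over P0, 3.45, was called (adjusted p = 0.0393, against 0.232 with it). With the methods' thresholds 3, 1 and 2 genes passed at 1 W, 3 W and 5 W, against 3.80%, 4.08% and 4.60% of probes.

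Ordered by group mean, Calb1 ran AN at 3 W, AN at 5 W, EN at P0, AN at 1 W, AN at P0 and then the later EN groups, with 1 gap that no arrays crossed, of 2.97 between AN at P0 and EN at 1 W. The EN groups at 3 W and 5 W were below background and have no order. Calb1 moved with markers of several cell types over the 24 arrays, which share the same extracts and normalization. Pearson's r was 0.766 with the sensory neuron list and 0.847 with a spinal interneuron list. The interneuron list had means of 6.60 to 8.06 in AN and 5.62 to 5.85 in EN at 5 W, its highest value in the AN replicate 2 where Calb1 read 10.22. The sensory neuron list read 8.63 and 8.19 in AN replicates 1 and 2 at 3 W, below its P0 levels, while Calb1 there read 8.38 and 8.24. In replicate 3 of that group the list read 11.70, above its P0 levels, and Calb1 read 10.26. The part of these markers in the Calb1 difference was not tested.

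The 3 Calb1 probes read different stretches of the gene, and their bases are shown since 1 of them was nearly silent. The first 30 bases are given, or the last 30 for the probe that holds AATAAA (in capitals). AATAAA is the form of a polyadenylation signal, and whether it acts as one here was not tested. The sequences are those of the probe column in the deposited scanner files, 5′ to 3′.
A_51_P335801, the chosen probe: tatgtctgattctatgcctatatttccaag
A_66_P102374: gaagtagcagttcctgatgaggaataaggg
A_55_P2181602: tttaaagattagccaacAATAAAtcctaga
The first pair lie at chr4:15832543-15832602 and chr4:15835078-15835137, and the last at chr4:15833582-15833641 between them.

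The second Calb1 probe followed the first with r = 0.901 over the 24 arrays. It passed the filter on dim probes only through the AN groups after P0, where its means were highest. Its differences between roots are therefore not independent of that filter. By that probe AN was at least 3.24-fold higher than EN at 3 W (adjusted p = 0.0126) and at least 2.49-fold higher at 5 W (adjusted p = 0.000647). At 1 W the bound was 1.87-fold, which was not called (adjusted p = 0.0508). Against P0 in EN, this probe was called lower at 1 W, by at least 1.48-fold (adjusted p = 0.0424), and at 5 W, by at least 1.33-fold (adjusted p = 0.00134), and was not called at 3 W (adjusted p = 0.113). In AN it was called at 3 W, where it rose by 1.23 (adjusted p = 0.027), unlike the chosen probe, and the difference at 5 W was 1.01 (adjusted p = 0.0656). The difference between roots exceeded that at P0 by a fitted 2.93 at 5 W, which was called (adjusted p = 0.0274), and by 2.08 at 3 W, which was not (adjusted p = 0.19). The probe that holds AATAAA was well above background on 1 of 24 arrays. Both AATAAA and ATTAAA were searched on the probe strand, and 13.4% of all gene probes hold either one. Of the 17 member probes searched, 2 held one, this Calb1 probe and the Etv1 probe A_66_P100845.

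Pvalb, the parvalbumin gene, rose with age in AN, and at 1 W its AN arrays stood apart from its EN arrays. Its probe lies at chr15:78021951-78022010 on the minus strand. Signals on the AN arrays were 10.60, 11.55 and 10.06 at P0, 11.95, 12.13 and 11.73 at 1 W, 14.00, 12.00 and 14.75 at 3 W, and 14.09, 11.71 and 11.33 at 5 W. Signals on the EN arrays were 10.42, 11.58 and 10.94 at P0, 9.88, 9.68 and 9.52 at 1 W, 12.96, 12.19 and 11.99 at 3 W, and 12.33, 12.07 and 11.06 at 5 W. Every AN array exceeded every EN array at 1 W, and the roots overlapped at the other ages.

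At 1 W the Pvalb difference was 2.24 ± 0.66 (SE), with a 95% interval of 0.86 to 3.63, and was not called (adjusted p = 0.0671). The 3 same-numbered AN and EN pairs differed by 2.08, 2.45 and 2.20, and with the replicate number as a block the difference was called (adjusted p = 0.0217). Without AN replicate 3 of 3 W it was called as well (adjusted p = 0.0365). From P0 to 3 W in AN, Pvalb rose by 2.85, or 7.19-fold (adjusted p = 0.0015), and by 2.26 without AN replicate 3 of 3 W (adjusted p = 0.0114). Without the arrays numbered 3 of every group the rise was 1.92 and not called (adjusted p = 0.0627). By 5 W it had risen by 1.64 (adjusted p = 0.0463), a call that held in 10 of 24 fits that each left out 1 array: without replicate 1 of that group the difference was 0.78 (adjusted p = 0.305). With the replicate block the adjusted p at 5 W was 0.0637. In EN the differences from P0 were -1.29 at 1 W, 1.40 at 3 W and 0.84 at 5 W, none called.

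In the AN arrays of 3 W and 5 W, skeletal muscle markers and Pvalb were high on the same arrays. The muscle list had 11 of 12 genes well above background on all arrays, none absent from all, and troponin Tnnc2 as its brightest probe. Its mean in AN replicates 1, 2 and 3 was 12.69, 10.14 and 13.53 at 3 W and 12.91, 9.16 and 9.02 at 5 W, the same order of arrays as Pvalb. In EN it was 11.39, 11.32 and 10.60 at 3 W and 11.39 to 13.04 at P0, when every Pvalb value in EN was lower than at 3 W. At 1 W it was 8.03 to 9.45 in AN and 9.28 to 9.99 in EN, while every AN array was higher for Pvalb. None of the 12 muscle genes was called between roots at any age. Myh4, an adult fast myosin picked out after its values were seen, rose in AN from a mean of 4.69 at P0 to 13.90 at 3 W (adjusted p = 6.62e-05). Of the 12 muscle genes, 2 were called higher in AN at 3 W than at P0 and 0 lower, with a median difference of 0.13. At 5 W in AN, 1 was called higher and 4 lower, with a median of -1.47. Of all tested probes, 51.7% at 3 W and 50.6% at 5 W were called in either direction. Over the 24 arrays r between Pvalb and the muscle list was 0.528, and r between Pvalb and a glial list of oligodendrocyte and astrocyte genes was 0.637. The part of muscle or glial RNA in the change of Pvalb with age was not tested. In order of group means, Pvalb was highest in AN at 3 W and lowest in EN at 1 W, and each group overlapped the next except AN at P0 and EN at 1 W.

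Calb2, the calretinin gene, was near background in most arrays and rose with age in AN. Its chosen probe aligns to chr8:112667073-112669583 on the minus strand, a span of 2511 bases for 60 bases of probe. The AN signals were 3.81, 3.55 and 2.52 at P0, 5.11, 3.17 and 5.07 at 1 W, 5.10, 6.22 and 7.42 at 3 W, and 4.57, 7.63 and 4.76 at 5 W. The EN signals were 3.35, 3.55 and 2.51 at P0, 2.53, 2.51 and 2.53 at 1 W, 3.65, 3.51 and 4.79 at 3 W, and 4.65, 5.17 and 5.54 at 5 W. No array of P0, and no EN array of 1 W or 3 W, was well above background. All 3 arrays were well above background only in AN at 3 W, where the mean was highest. The probe passed the filter on dim probes through that group alone, so its differences of AN at 3 W are not independent of the filter.

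In AN, Calb2 at 3 W was at least 2.93-fold higher than at P0 (adjusted p = 0.00208), and remained called without AN replicate 3 of 3 W (adjusted p = 0.015). Without the arrays numbered 3 of every group, the fitted difference was 1.99 and not called (adjusted p = 0.0737). At 5 W in AN it was at least 1.95-fold higher than at P0 (adjusted p = 0.01), but without replicate 2 of 5 W the adjusted p was 0.0776, and without replicate 3 of P0 it was 0.0526. In EN at 5 W the bound was 1.03-fold (adjusted p = 0.0255), and the difference was not called after normexp background correction (adjusted p = 0.226) or without EN replicate 3 of P0, replicate 2 of 5 W or replicate 3 of 5 W (adjusted p = 0.0978, 0.0548 and 0.0803). Between roots at 3 W, AN was at least 2.59-fold higher, which was not called (adjusted p = 0.0703) but was with the replicate block (adjusted p = 0.0199). The glial list, whose r with Calb2 was 0.716, was highest in AN replicate 2 at 5 W, 10.40 against a lowest value of 8.94 in that group. That is the array where Calb2 read 7.63, and its part in the Calb2 value was not tested. A second Calb2 probe was above background on 4 arrays and was not tested. Neighbouring groups in the order of Calb2 means all overlapped.

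Piezo2, the mechanically gated channel, was called higher in AN than in EN at 1 W and at no other age. The AN arrays read 12.58, 13.38 and 12.38 at P0, 12.65, 12.97 and 12.83 at 1 W, 11.56, 10.90 and 12.99 at 3 W, and 11.75, 10.86 and 11.62 at 5 W. The EN arrays read 12.41, 12.51 and 12.65 at P0, 11.26, 11.57 and 11.47 at 1 W, 11.86, 11.61 and 11.75 at 3 W, and 12.07, 11.44 and 11.94 at 5 W. The roots did not overlap at 1 W, where every AN array was more than 1 log2 unit above every EN array, and overlapped at the other ages.

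At 1 W the Piezo2 difference was 1.38 ± 0.37 (SE), or 2.61-fold, with a 95% interval of 0.60 to 2.17 (adjusted p = 0.0425). The same-numbered pairs differed by 1.39, 1.41 and 1.35. The call sat near the threshold: it held in 10 of 24 fits that each left out 1 array, and was lost with the scanner signals scaled to the 75th percentile (adjusted p = 0.0539) or with no filter on dim probes (adjusted p = 0.0711). At 5 W the pairs differed by -0.32, -0.57 and -0.32, and the difference of -0.41 was not called (adjusted p = 0.588).

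Against P0, the chosen Piezo2 probe was called lower in AN at 3 W and 5 W and in EN at 1 W. In AN the difference from P0 was 0.04 at 1 W (adjusted p = 0.962), and Piezo2 fell by 0.96 at 3 W (adjusted p = 0.038) and by 1.37 at 5 W (adjusted p = 0.00485). Without AN replicate 3 of 3 W the fall at 3 W was larger, 1.55 (adjusted p = 0.000283), and with the replicate block the 3 W adjusted p was 0.0635. Without replicate 2 of P0, replicate 1 of 3 W or replicate 2 of 3 W, the 3 W differences were -0.66, -0.83 and -0.50, none called (adjusted p = 0.183, 0.117 and 0.257). In EN it fell by 1.09 at 1 W (adjusted p = 0.0368, or 0.0633 with the replicate block, and 0.0611 to 0.114 without any 1 of the 6 arrays compared), and the later differences were -0.78 and -0.71, neither called. Without AN replicate 3 of 3 W both later EN differences were called (adjusted p = 0.0165 and 0.0282). Several lists moved with Piezo2 across the arrays, with r of 0.83 for the motor neuron list, 0.819 for the sensory neuron list, 0.69 for the bone and cartilage list, -0.648 for the macrophage list and -0.665 for the Schwann cell list, and their part in these falls was not tested.

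The other Piezo2 probes differed from the chosen one in their calls. A second Piezo2 probe tracked the chosen one with r = 0.935. Unlike the chosen probe it was called lower in EN at 3 W, by 0.96 (adjusted p = 0.0283), and at 5 W, by 0.90 (adjusted p = 0.0391). The probes A_55_P2139077 and A_55_P2642843 had r of 0.842 and 0.468 with the chosen one. A_55_P2642843 was called lower in EN at 3 W, by 0.64 (adjusted p = 0.00549), and at 5 W, by 1.23 (adjusted p = 1.35e-05). A_55_P2139077 was called in EN at neither age. Between roots at 1 W none of the 3 other probes was called, with differences of 1.24, 0.84 and -0.17 (adjusted p = 0.0569, 0.324 and 0.801). In the order of Piezo2 group means, EN at 3 W and EN at 1 W were the only neighbours that did not overlap.

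Whrn, the whirlin scaffold, varied little and declined in EN. Its probe lies at chr4:63075979-63076038 on the minus strand. In AN the arrays read 10.33, 10.37 and 10.23 at P0, 9.79, 9.90 and 9.72 at 1 W, 9.69, 9.62 and 10.81 at 3 W, and 9.87, 9.95 and 9.51 at 5 W. In EN the arrays read 10.25, 10.24 and 10.01 at P0, 9.49, 9.61 and 9.40 at 1 W, 9.58, 9.57 and 9.74 at 3 W, and 9.64, 9.29 and 9.18 at 5 W. All 9 later EN arrays lay below all 3 EN arrays of P0.

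In EN, Whrn fell by 0.67 at 1 W (adjusted p = 0.0307), by 0.54 at 3 W (adjusted p = 0.046) and by 0.80 at 5 W (adjusted p = 0.00514). With the slide or the scan batch as a block the 3 W difference was -0.26 or -0.22, neither called (adjusted p = 0.563 and 0.613). The 3 W call was also lost with the replicate block (adjusted p = 0.0614) and held in 7 of 24 fits that each left out 1 array. The 1 W call held in 19 of them and was lost without EN replicate 1 or 2 of P0 or any 1 EN array of 1 W (adjusted p = 0.0529 to 0.0826). In AN the differences were -0.51, -0.27 and -0.53, none called. Without AN replicate 3 of 3 W all were called, the falls being 0.51, 0.65 and 0.53 (adjusted p = 0.00966, 0.00139 and 0.00259). The roots differed by 0.31 at 1 W with no overlap between arrays, against 24.6% of probes without overlap there, and were not called (adjusted p = 0.653). Another Whrn probe, at chr4:63122326-63122385, had r = 0.076 with the chosen one. On it the EN differences from P0 were -0.27, 0.11 and -0.21, none called (adjusted p = 0.456, 0.733 and 0.51). The chosen Whrn probe moved with the sensory neuron list (r = 0.815), a pan-neuronal list (0.814) and the interneuron list (0.795), and their part in the Whrn values was not tested. Neighbouring groups in the order of Whrn means all overlapped.

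Runx3, the runt-family factor that directs proprioceptor development, gave a low signal that fell at 3 W. Signals on the AN arrays were 5.85, 5.78 and 5.61 at P0, 5.84, 6.17 and 6.20 at 1 W, 4.41, 4.91 and 5.49 at 3 W, and 6.11, 5.86 and 5.79 at 5 W. Signals on the EN arrays were 5.75, 5.86 and 5.78 at P0, 6.16, 6.22 and 6.27 at 1 W, 4.89, 4.96 and 5.71 at 3 W, and 6.32, 6.11 and 6.14 at 5 W. The roots overlapped at every age, and differed by -0.27 to -0.05 over the 4 ages, none of it called.

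At 3 W Runx3 fell by 0.81 in AN (adjusted p = 0.00503) and by 0.61 in EN (adjusted p = 0.0254). All 6 arrays of 3 W were on 1 slide that held no P0 array. With the slide as a block the adjusted p was 0.0997 in AN and 0.217 in EN, values that rest on indirect links between slides. The EN call was also lost without replicate 2 or 3 of P0 or replicate 1 or 2 of 3 W (adjusted p = 0.0531 to 0.121). Neighbouring groups in the order of Runx3 means all overlapped.

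Both Runx3 probes that were tested are shown by their first 30 bases, since they did not follow each other.
A_51_P494992, the chosen probe: acctcttgtctccagccatgcccaggatca
A_65_P12675: ctgtggagtctctggtgaggtgtgcgatga
The chosen probe lies at chr4:134731959-134732018 and the other at chr4:134732807-134732866, both on the plus strand, and neither holds AATAAA or ATTAAA in its 60 bases. Over the 24 arrays their r was -0.01. At 1 W the second probe read 5.86, 6.03 and 5.98 in AN and 3.37, 4.53 and 4.29 in EN, with no EN array well above background. The second probe's AN and EN arrays did not overlap at 1 W, but the difference was not called (adjusted p = 0.1), and the chosen probe gave -0.15 there. At 3 W the second probe differed from P0 by -0.27 in AN and -0.33 in EN, neither called (adjusted p = 0.73 and 0.662).

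Etv1, an ETS-family factor needed for the connections of proprioceptors with motor neurons, was steady on its chosen probe. The AN signals were 12.33, 13.04 and 12.46 at P0, 12.49, 12.89 and 12.74 at 1 W, 12.86, 12.93 and 13.56 at 3 W, and 12.37, 12.33 and 12.76 at 5 W. The EN arrays lay between 12.39 and 12.87 at all 4 ages. The roots overlapped at every age. A rise of 0.51 in AN from P0 to 3 W was called (adjusted p = 0.0388), but rested on AN replicate 3 of 3 W: without it the difference was 0.29 (adjusted p = 0.221). Without replicate 1 or 3 of P0 it was 0.37 or 0.43 (adjusted p = 0.17 and 0.127). It was also not called with the replicate block, and with the slide as a block the difference was 0.08 (adjusted p = 0.831). Neighbouring groups in the order of Etv1 means all overlapped.

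Another Etv1 probe gave a different pattern, and the first 30 bases of both are shown for that reason.
A_66_P135185, the chosen probe: tcacaggccagtagcattttatgtatctgg
A_65_P03926: tcttgtgcagaaaaatcgaaggcttcggtt
They lie at chr12:39593054-39593113 and chr12:39551431-39551487 on the plus strand, and neither holds AATAAA or ATTAAA in its 60 bases. The r between the 2 probes over the 24 arrays was -0.19. The second probe read 8.83, 8.66 and 8.59 in AN at P0 and 7.55, 7.57 and 7.49 in AN at 1 W, against 8.43, 8.48 and 8.13 in EN at 1 W. By that probe Etv1 was lower in AN than in EN at 1 W, by a difference of -0.81 (adjusted p = 0.0115). It fell in AN by 1.16 at 1 W, 0.76 at 3 W and 0.76 at 5 W, and in EN by 0.62, 0.46 and 0.69, all called. Which transcripts each probe reads was not tested, and an mm9 exon annotation was not used here.

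**Figure D3:**
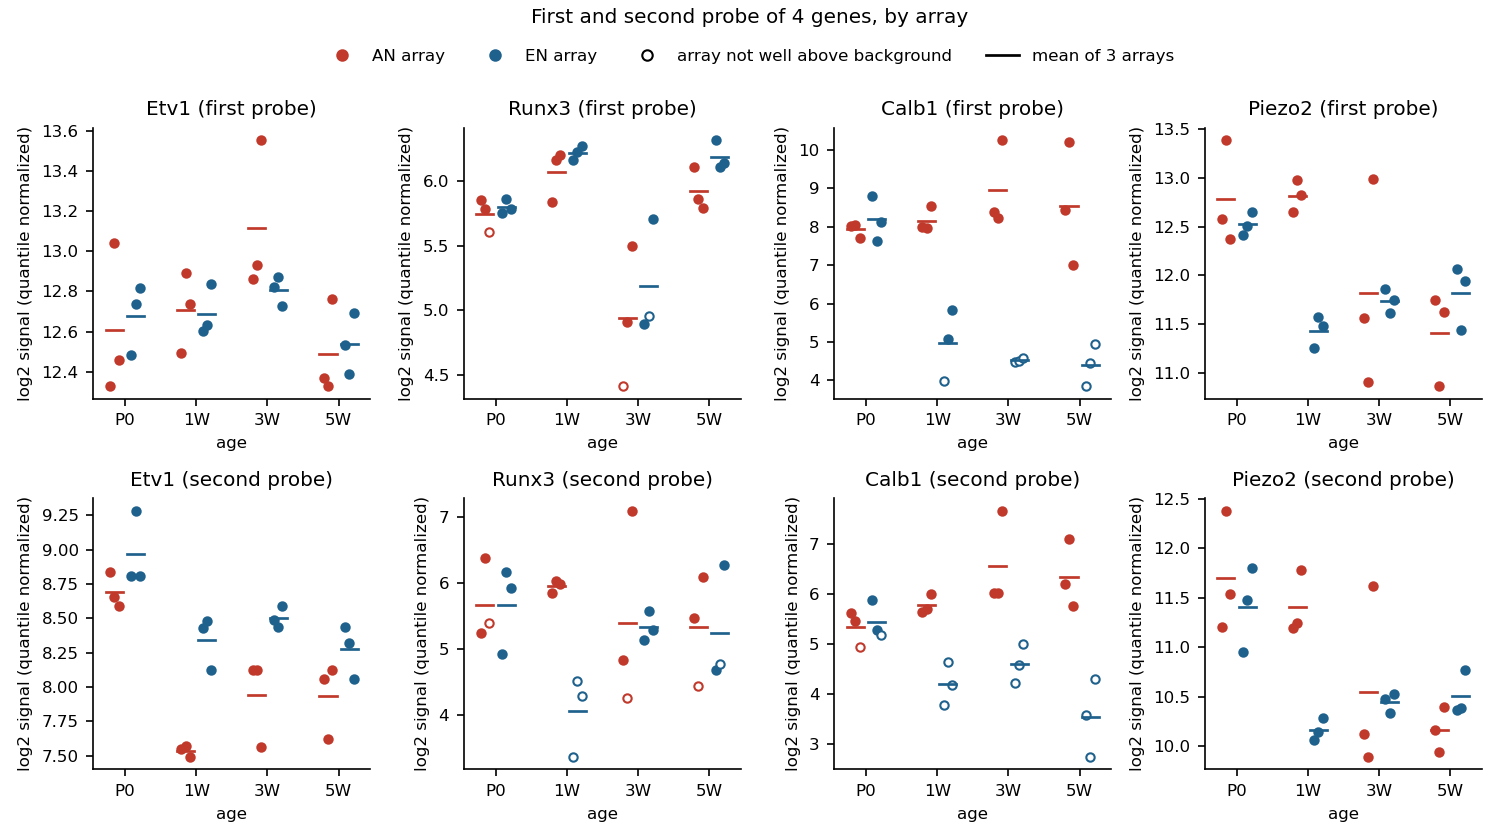
Log2 signal (vertical axes) by age (horizontal axes) of the chosen probe (top) and a second probe (bottom) of Etv1, Runx3, Calb1 and Piezo2, AN and EN apart. Points are arrays, open where not well above background, and short lines are means of 3 arrays. The Calb1 and Piezo2 probes move together (r of 0.901 and 0.935), and the Runx3 and Etv1 probes do not (r of -0.01 and -0.19).

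Spp1, the osteopontin gene, fell in both roots at 1 W and was then highest in EN at 5 W. Its probe lies at chr5:104869788-104869847 on the plus strand. The AN arrays read 12.95, 14.45 and 12.45 at P0, 10.45, 11.39 and 10.19 at 1 W, 11.52, 11.64 and 12.67 at 3 W, and 13.23, 14.82 and 13.46 at 5 W. The EN signals were 12.58, 13.19 and 12.82 at P0, 8.67, 9.69 and 10.76 at 1 W, 13.14, 13.00 and 13.28 at 3 W, and 14.76, 16.16 and 15.35 at 5 W. At 3 W every EN array exceeded every AN array, and at 5 W the roots overlapped by 1 AN array.

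From P0 to 1 W Spp1 fell by 2.61 in AN (adjusted p = 0.00268) and by 3.16, or 8.91-fold, in EN (adjusted p = 0.000503). On the slides that held both ages the differences were -2.50 and -3.26 in AN and -3.91 and -2.25 in EN. At 5 W in EN it rose above P0 by 2.56, or 5.90-fold (adjusted p = 0.000852), and the difference was 3.16 on the slide that held both ages. In AN the difference at 3 W was -1.34 (adjusted p = 0.0545), and without AN replicate 3 of 3 W it was -1.70 and called (adjusted p = 0.0287). At 5 W in AN the difference was 0.55 (adjusted p = 0.436). Between roots at 5 W the difference was -1.59 ± 0.56 (SE), with a 95% interval of -2.77 to -0.40, and was not called (adjusted p = 0.105). The same-numbered pairs differed by -1.53, -1.34 and -1.89, and with the replicate block the difference was called (adjusted p = 0.0272). At 3 W it was -1.20 (adjusted p = 0.251).

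Cell types known to make osteopontin were measured on the same arrays. Over both roots the macrophage list, led by Csf1r, had means of 10.67 to 10.99 at P0 and 11.66 to 12.07 at 1 W. Its means were 11.45 to 12.22 at 3 W and 11.77 to 12.52 at 5 W. The bone and cartilage list, led by Col2a1, had means of 8.16 to 9.52 at P0 and 6.82 to 8.18 at 1 W. Its means were 5.56 to 6.72 at 3 W and 5.62 to 7.13 at 5 W. A motor neuron list had means of 5.73 to 6.18 in EN and 5.38 to 6.16 in AN at 5 W, and its defining marker Mnx1 was well above background on no array. Over the 24 arrays r with Spp1 was 0.011 for the macrophage list and -0.061 for the bone list. A T cell and NK cell list, with Cd4 as its brightest probe, had r = 0.411 and means of 6.23 to 7.00 in EN at P0, 7.76 to 8.04 in EN at 5 W and 7.05 to 7.74 in AN at 5 W. The part of these cells in the Spp1 values was not tested. In the order of group means, AN at 3 W and AN at 1 W were the only neighbours of Spp1 that did not overlap.

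**Figure D4:**
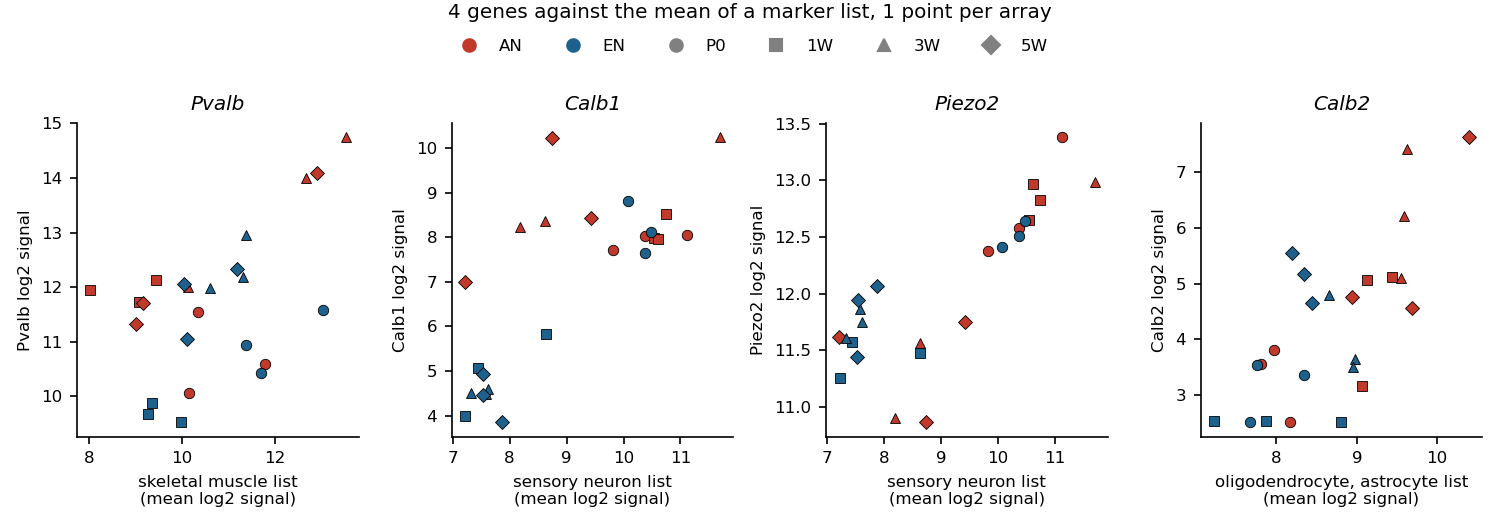
Log2 signal of 4 of the genes (vertical axes) against the mean log2 level of a marker list (horizontal axes), 1 point per array, with colours for root and symbols for age. Pvalb against the muscle list has r = 0.528, Calb1 and Piezo2 against the sensory neuron list 0.766 and 0.819, and Calb2 against the glial list 0.716.

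Other genes known in proprioceptors and low-threshold mechanoreceptors, 27 of 29 on the list tested, were counted in the same way. Between roots, 0 were called higher in AN at birth, 10 at 1 W, 7 at 3 W and 7 at 5 W, where 0.739%, 4.00%, 5.89% and 6.76% of all tested probes were called in either direction. One gene, Maf, was called lower in AN at P0 and at 3 W, and none was at 1 W or 5 W. Other lists were higher in AN too. At 1 W, 8 of 10 nociceptor, 7 of 12 pan-neuronal and 3 of 5 sensory neuron genes tested were called higher. The median differences of these lists at 1 W were 4.69, 3.23 and 4.93. At 3 W 1, 2 and 1 of their genes were called higher, and at 5 W 1, 1 and 0. Of the interneuron and glial lists, 4 of 8 and 5 of 10 genes tested were called higher at 5 W. Their median differences there were 1.85 and 1.61. At 1 W 1 and 5 of their genes were called higher, with 1 glial gene lower, and at 3 W 1 and 0. For the proprioceptor and mechanoreceptor list the medians follow. The median difference was 0.23, 1.19, 0.96 and 0.64 at the 4 ages, or 0.23, 1.01, 0.64 and 0.50 with genes below background in a root set at their bound, beside -0.06 to 0.01 over all tested probes. In EN, 13, 17 and 19 of the 27 were called lower than at P0 at 1 W, 3 W and 5 W, and 2, 4 and 4 higher, with 27.1%, 55.0% and 54.1% of all probes called in either direction. In AN, 2, 3 and 10 were lower and 2, 3 and 4 higher, with 21.7%, 51.7% and 50.6% of all probes called.

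The 5 genes given first here were picked for the largest mean size of AN minus EN among listed genes called at an age. Their differences are therefore no further test of the list. Asic3, an acid-sensing channel of sensory neurons, was higher in AN by 4.19 at 1 W (adjusted p = 0.0112) and by 3.37 at 3 W (adjusted p = 0.0326), with 1.85 at 5 W not called (adjusted p = 0.252). Shox2, a transcription factor of touch receptors, was higher by 3.54 at 1 W (adjusted p = 0.0317) and at least 3.33-fold higher at 3 W (adjusted p = 0.0374). At 5 W Shox2 was not called (adjusted p = 0.0882). The AN arrays of 3 W were far apart, with an SD of 2.85 for Asic3 and 2.49 for Shox2. In AN at 1 W these SDs were 0.215 and 0.348. Vsnl1, a neuronal calcium sensor, was higher by 3.46 at 1 W (adjusted p = 0.0103) and by 3.00 at 5 W (adjusted p = 0.0176). At 3 W its difference of 2.285 was not called (adjusted p = 0.0759). The channel gene Asic2 was higher by 3.15 at 1 W (adjusted p = 0.0068) and by 2.32 at 3 W (adjusted p = 0.0315), with 1.95 at 5 W not called (adjusted p = 0.0651). Nxph1, a secreted neurexin ligand, was at least 3.17-fold higher at 3 W (adjusted p = 0.0102) and at least 2.16-fold higher at 5 W (adjusted p = 0.0075). Its difference of 2.24 at 1 W was not called (adjusted p = 0.111). Ntrk3, the receptor of neurotrophin-3 on which proprioceptors depend, was higher by 1.22 at 3 W (adjusted p = 0.0111), with 0.91 at 1 W and 0.80 at 5 W not called (adjusted p = 0.0684 and 0.0876). Slc17a7, a vesicular glutamate transporter of large sensory neurons, was well above background on 1 array and was not tested.

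**Figure D5:**
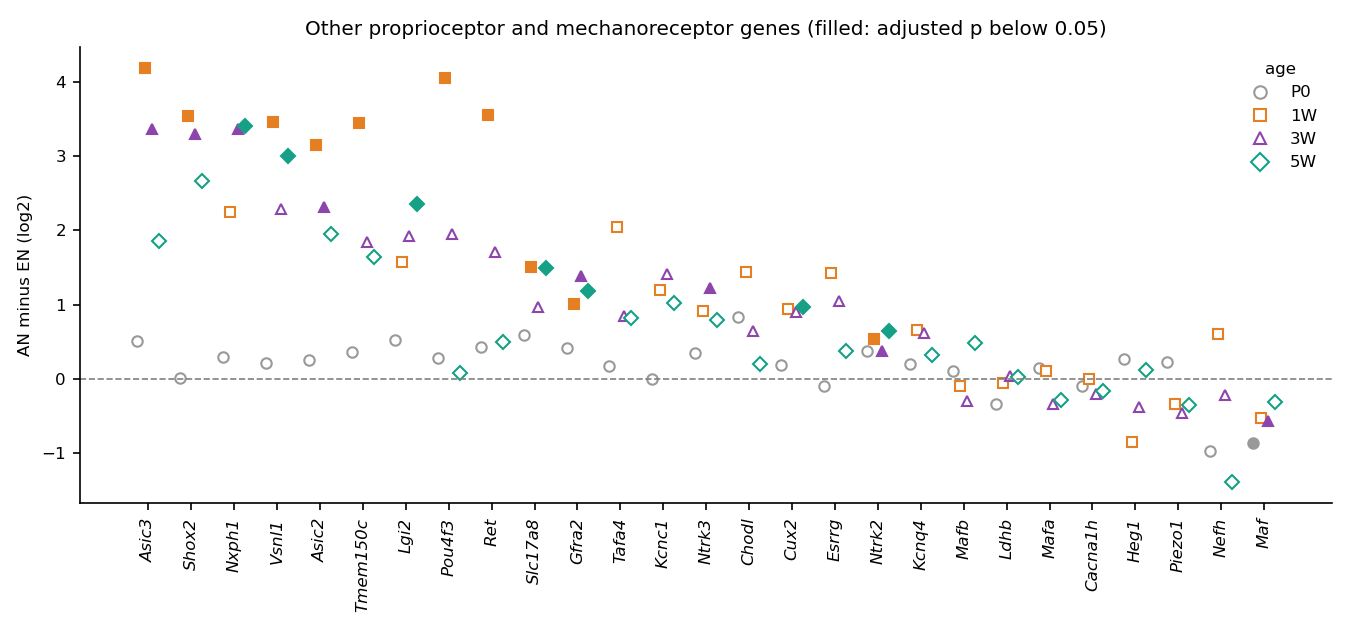
Difference in log2 signal, AN minus EN (vertical axis), of the 27 other proprioceptor and low-threshold mechanoreceptor genes tested (horizontal axis), with a symbol for each age. Filled points were called. The median moved from 0.23 at P0 to 1.19 at 1 W.

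Over the 24 arrays, 17728 other genes were ranked by the correlation of their probe with each member's. The highest were Chgb (r = 0.974) and Scg2 (0.968) for Calb1, Smim43 (0.925) and Asns (0.911) for Piezo2, and Aldoc (0.902) and Gls2 (0.895) for Calb2. For Whrn they were Hoxb5 (0.895) and Rtn2 (0.888), for Spp1 Ptpru (0.892) and Elovl4 (0.885), and for Pvalb Tstd1 (0.878) and Cdk5 (0.864). For Etv1 they were Dffa (0.887) and Get1 (0.822), and for Runx3 Olfr1008 (0.869) and Cyp4a31 (0.867). These are descriptions across arrays that share ages, slides and extracts.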

How the data were processed

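Total RNA was hybridised by the authors to one-colour (Cy3) 8x60K mouse arrays and read with Agilent Feature Extraction (version 10.7.1.1). The scanner files hold intensity values and flags of a spot being well above the local background, and the other deposited columns used are probe names, sequences and mm9 positions per the file headers. The deposited table holds log2 values, which the authors quantile normalized in GeneSpring. Its 138 rows that are no gene probe were left out. Symbols came from the files, or through accessions in a RefSeq gene table.

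Here 36409 of 56605 gene probes, those that all 3 arrays of some group measured well above background, were fitted with limma (version 3.58.1, R 4.3.3) as 8 group means over 24 arrays, with Benjamini-Hochberg adjustment over all tested probes and 16 residual degrees of freedom. The fit was tested on simulated data. No spot of a member was saturated. Between 55.1% and 71.7% of spots per array were well above background, and their lowest log2 value ran from 3.71 to 5.87. Precision is limited by the 3 arrays per group. A fold against a group in which no array was well above background is a bound against this lowest value on each array. Such a bound holds on the deposited scale only, not for other processing. Same-numbered AN and EN arrays, which share a slide, deviated together from their group means (r of 0.107 to 0.646 over 12 pairs), so the replicate number was also fitted as a block.

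The 8 genes and all lists were chosen with earlier results of these data known. Named beside them were Ntrk3, Slc17a7 and the 5 listed genes with the largest mean size of AN minus EN among those called at an age, the 2 genes most correlated with each member, the brightest gene of a marker list, and defining markers never above background. Alternatives were the scanner signals (quantile, 75th percentile scaling, normexp with offset 50), other filters, blocks for replicate, slide and scan batch, array weights, the 6 arrays compared alone, the methods' thresholds (p under 0.05 and fold over 2), other probes, and each array or replicate number left out.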

Additional observations from a re-analysis of the deposited data

Results flagged for a closer look

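On the chosen probe, the Piezo2 difference between AN and EN turned from above 0 in every same-numbered pair at 1 W to below 0 in every pair at 5 W. The difference at 5 W was not called. The difference at 5 W minus that at 1 W was -1.79. This difference was not tested. Of the other tested probes, A_55_P2040245 had the same signs in every pair, and A_55_P2139077 and A_55_P2642843 did not. A_55_P2139077 had a difference of 0.06 in pair 3 at 5 W. A_55_P2642843 had -0.15, 0.01 and -0.38 at 1 W and -0.12, 0.23 and -0.01 at 5 W.

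The Calb1 difference between AN and EN differed from that at P0 by the test of the difference between ages. The fitted excess was 4.69 at 3 W (adjusted p = 0.0197) and 4.40 at 5 W (adjusted p = 0.0201). On the deposited scale it was at least 4.34 and at least 3.77 with the EN arrays below background set at their bound. After normexp background correction these values were 2.79 and 2.47, and neither was called (adjusted p = 0.0538 and 0.0711).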

How the results depend on the processing

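Of 104 pairs of a gene and a comparison, 26 were called. Without any 1 array, 13 of the 26 remained called. Under every processing alternative that could be run for them 13 remained, and 11 under both. Without replicate 1, 2 or 3 in turn 5 remained, all of Calb1 or Spp1. The replicate block ended 5 calls and added 3, each given with its gene, and changed no other call of the 8 genes. No called value changed sign on its chosen probe, while values not called did so 81 times, among them Piezo2 between roots at 3 W, from 0.08 to -0.51 without AN replicate 3 (not called, adjusted p = 0.421). On the second Etv1 probe the values were -0.81 for AN minus EN at 1 W, -1.16 and -0.76 for AN at 1 W and 3 W against P0, and -0.62 and -0.46 for EN. On the Piezo2 probe A_55_P2642843 AN minus EN at 1 W was -0.17 and AN at 1 W against P0 was -0.82. On the other Whrn probe EN at 3 W against P0 was 0.11. The causes were not tested.

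The number of the 8 genes called moved by up to 1.5 times in 28 other cases: between roots at 1 W (3), in AN at 3 W (4 to 6) and 5 W (2), and in EN (3 to 6, 2 to 4 and 3 to 5). Larger moves were as follows. Between roots at 1 W it went from 2 to 1 with 75th percentile scaling, no filter on dim probes, or only probes above background on all arrays, and to 4 with array weights or the methods' thresholds. At 3 W it went from 1 to 0 with only probes above background on all arrays, which leaves Calb1 out, to 2 with the replicate or slide block, and to 3 with array weights or the methods' thresholds. At 5 W it went from 1 to 0 with those probes or the 6 arrays alone, and to 2 with the replicate block or the methods' thresholds.

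Against P0 in AN it went at 1 W from 1 to 2 with array weights or the 6 arrays alone. At 3 W it went from 5 to 3 with no filter, the replicate block or the methods' thresholds, and to 2 with the slide block, the scan block or the 6 arrays alone. At 5 W it went from 3 to 1 with the 6 arrays alone. In EN it went at 3 W from 3 to 1 with only probes above background on all arrays and to 5 with array weights, and at 5 W from 4 to 2 with those probes. For the difference between roots against that at P0 it went at 1 W from 0 to 1 with array weights and 3 with the methods' thresholds. At 3 W and 5 W it went from 1 to 0 with normexp or those probes, and at 5 W to 2 with the methods' thresholds. The 6-array fits give no such difference.

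Leaving out 1 array or replicate number, the counts between roots ranged from 0 to 0 at P0, 0 to 3 at 1 W, 1 to 2 at 3 W and 0 to 1 at 5 W. They ranged in AN from 0 to 2, 2 to 6 and 1 to 4, in EN from 1 to 4, 1 to 5 and 3 to 5, and for the difference against P0 from 0 to 1 at each age. Signal over background limits Calb2, Runx3 and, in EN after P0, Calb1, for which values below background have no order.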
